A study of Mus musculus with 60 samples.

Results

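The Wnt signalling machinery was followed gene by gene in the prefrontal cortex of young mice. The set comprised 48 genes for Wnt ligands, their maturation, their receptors, the intracellular relay, secreted antagonists, R-spondins and the feedback genes that beta-catenin switches on. They were found by their Ensembl identifiers and had to reach a normalised read count of 10 in at least 5 libraries. All 48 did, among the 17781 of 18088 deposited genes that did so. C57BL/6J mice were either wild type (WT) or Tbr1+/K228E heterozygous (HT), carrying 1 allele of the cortical transcription factor gene Tbr1 with the K228E substitution. Pups received vehicle, fluoxetine or lithium through their mothers' milk from postnatal day 3 to day 24, which is 3 weeks, and the tissue was taken on day 25. Fluoxetine is a serotonin reuptake inhibitor and lithium is a mood stabiliser. Genotype, treatment and sex made 12 groups of 5 poly(A) RNA-seq libraries, 60 in all.

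In the canonical Wnt pathway a secreted ligand binds a Frizzled receptor together with LRP5 or LRP6, and the signal passes through Dishevelled to a complex of APC, AXIN and the kinase GSK3. That complex otherwise marks beta-catenin for destruction; when it is held back, beta-catenin accumulates and acts with the LEF and TCF factors on target genes. Many of these targets, such as Axin2, Nkd1, Notum, Znrf3 and Rnf43, dampen the pathway in turn, so their transcripts serve as readouts of its activity. Lithium inhibits GSK3, and the comparisons below describe whether the feedback genes and the other parts of the pathway differed with lithium and with genotype.

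The promoters of the feedback genes Nkd1, Axin2 and Lef1 are shown, since Nkd1 gave the only call among the members for lithium against vehicle, Axin2 and Lef1 are set beside it, and beta-catenin acts at target genes through LEF and TCF factors, which bind DNA with the core CTTTG. Nkd1 encodes an inhibitor that binds Dishevelled, Axin2 a scaffold of the destruction complex, and Lef1 one of the nuclear partners of beta-catenin. The sequences are from RefSeq on GRCm38.p6, plus strand, from 250 bases before to 50 bases after an annotated start: Nkd1 at chr8:88527383-88527682, Axin2 at chr11:108920099-108920398 and Lef1 at chr3:131110047-131110346. Capitals mark CTTTG or, for the other strand, CAAAG.
Nkd1: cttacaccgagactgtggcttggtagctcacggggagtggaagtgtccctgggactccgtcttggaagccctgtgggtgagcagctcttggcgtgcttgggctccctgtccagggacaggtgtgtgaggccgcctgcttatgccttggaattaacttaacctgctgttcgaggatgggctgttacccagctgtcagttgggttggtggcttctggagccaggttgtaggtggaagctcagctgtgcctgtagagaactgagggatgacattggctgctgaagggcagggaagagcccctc
Axin2: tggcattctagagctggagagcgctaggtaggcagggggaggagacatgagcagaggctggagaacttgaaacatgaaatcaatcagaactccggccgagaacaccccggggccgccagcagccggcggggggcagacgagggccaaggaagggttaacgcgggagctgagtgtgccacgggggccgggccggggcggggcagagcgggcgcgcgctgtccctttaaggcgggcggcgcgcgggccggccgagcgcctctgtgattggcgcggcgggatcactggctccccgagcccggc
Lef1: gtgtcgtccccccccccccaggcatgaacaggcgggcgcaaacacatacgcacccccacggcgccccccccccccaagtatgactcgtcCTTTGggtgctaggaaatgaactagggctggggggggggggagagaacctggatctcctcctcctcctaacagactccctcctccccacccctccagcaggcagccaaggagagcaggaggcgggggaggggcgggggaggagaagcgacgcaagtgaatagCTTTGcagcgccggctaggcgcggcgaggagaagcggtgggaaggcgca
The Lef1 window shown held CTTTG at positions -161 and 2 from the start, and the Nkd1 and Axin2 windows held no match. Lef1 had other annotated windows, each with a match. In the one at chr3:131110073-131110372 the same sites lay at -187 and -25. Searched on both strands, the core was present in 1 of the 5 feedback genes with a promoter entry (of 8), in 8 of 24 other members with an entry (of 40) and in 57.4% of all 27025 genes with one, counting any promoter of a gene; of single promoters of that length, 53.9% of 32851 held it. The longer forms CTTTGAA and CTTTGAT, which contain the core, were in 0 of 5, in 1 of 24 (Gsk3a) and in 9.88% of all genes, or 8.65% of promoters. The Nkd1 window lies inside the gene as drawn in GENCODE, whose span starts further upstream.

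Per kilobase of exon, beta-catenin (Ctnnb1) was the most abundant of these transcripts, with a mean over the 60 libraries of 3503 normalised reads per kb. It was followed by Gsk3a at 2183, the Dickkopf family member Dkk3 at 2010 and Apc at 1728 on the same scale. Among the ligands Wnt7b was highest at 298 reads per kb, then Wnt9a at 219 and Wnt4 at 203, and Wnt2 was at 26.4. Of the feedback genes Axin2 stood at 143 and Nkd1 at 134.6, whereas Lef1 was at 18.0 and Rnf43, which removes Frizzled receptors from the cell surface, at 9.91. Fzd5 was at 6.79 reads per kb.

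Several core genes varied little between libraries, and Lgr5 and Lgr6 varied most. The coefficient of variation over all 60 libraries was 5.95% for Ctnnb1, 7.49% for the co-receptor gene Lrp6, 7.86% for Dvl3 and 8.06% for Axin2. It was 48.2% for Wnt5a, 53.7% for Wnt7a, 83.7% for Lgr6 and 93.6% for Lgr5, genes for a ligand best known for non-canonical signalling, a canonical ligand and a pair of R-spondin receptors. The other R-spondin receptor gene, Lgr4, was at 33.6%, close to the Dishevelled inhibitor gene Nkd2 at 34.1%.

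Reads counted over the deposited genes totalled 23930164 to 36515331 per library. Tbr1 itself was read in every library; its level had medians of 2387, 3019 and 3669 normalised reads in WT and 4343, 4316 and 4742 in HT under vehicle, lithium and fluoxetine, and these totals do not separate the K228E allele. The cortical excitatory neuron markers were present throughout, but markers of the olfactory bulb, a neighbouring brain region, varied widely: the sum of 7 such markers (Cdhr1, Doc2g, Eomes, Shisa3, Tbx21, Th and Trh) ran from 96.6 to 23854 normalised reads. WT vehicle male replicate 4 stood apart with the lowest cortical excitatory marker sum, 50472 against a median of 187552, and, among other members, it held the lowest values of Wnt2 (0.963), Rspo2, Dkk3, Wnt4, Wnt9a and Wnt7b and the highest of Lgr5 (2204), Lgr4, Lgr6 and Wnt5a. HT vehicle female replicate 1 had the next lowest Wnt2 (8.21). The 10 vehicle males formed a separate cluster on the second principal component of all genes (9.46% of the variance; 17.8 to 47.9 against -32.0 to 12.5 in the other 50 libraries), so lithium was tested against vehicle in females and the male differences are given as descriptions.

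Of the 8 feedback genes, none passed the test as higher under lithium than under vehicle in WT females, and 1 passed as lower. Nkd1 (ENSMUSG00000031661, chr8:88521354-88594884 in GRCm38) was at 475, 516, 556, 604 and 623 normalised reads in the lithium females and at 683, 719, 731, 757 and 776 in the vehicle females. Every lithium library lay below every vehicle library; groups of 1.33% of all genes did not overlap, 0.613% with lithium lower. The log2 difference was -0.41 (SE 0.074, 95% interval -0.56 to -0.26, n = 5 and 5), with an adjusted p of 0.0237 by limma. Nkd1 was the only member called and the only gene called at all, against 0.00562% of the 17781 genes.

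The WT vehicle females also stood apart from the rest of the WT mice in Nkd1. They were above every library of the other 5 WT groups, whose highest value was 652.1 normalised reads. In WT fluoxetine females Nkd1 was at 507, 559, 593, 604 and 627. This was also below vehicle throughout, by a log2 difference of -0.35 (95% interval -0.49 to -0.20, adjusted p = 0.000888 by limma). That contrast shares the vehicle libraries, was added after the lithium result was seen, and called 28 of the 48 members, 8 higher and 20 lower, against 39.8% of all genes, 20.9% higher and 19.0% lower. The call in lithium females was lost in a fit to those 10 libraries alone (adjusted p = 0.443) and with olfactory bulb markers as covariates (log2 difference -0.37, 95% interval -0.51 to -0.22, adjusted p = 0.119). It was also lost without any 1 of 7 of the 10 libraries (lithium replicates 2, 4 and 5, vehicle replicates 1, 2, 3 and 5), with log2 differences from -0.45 to -0.35 and adjusted p from 0.0042 to 0.167 over all 10 omissions.

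**Figure D1:**
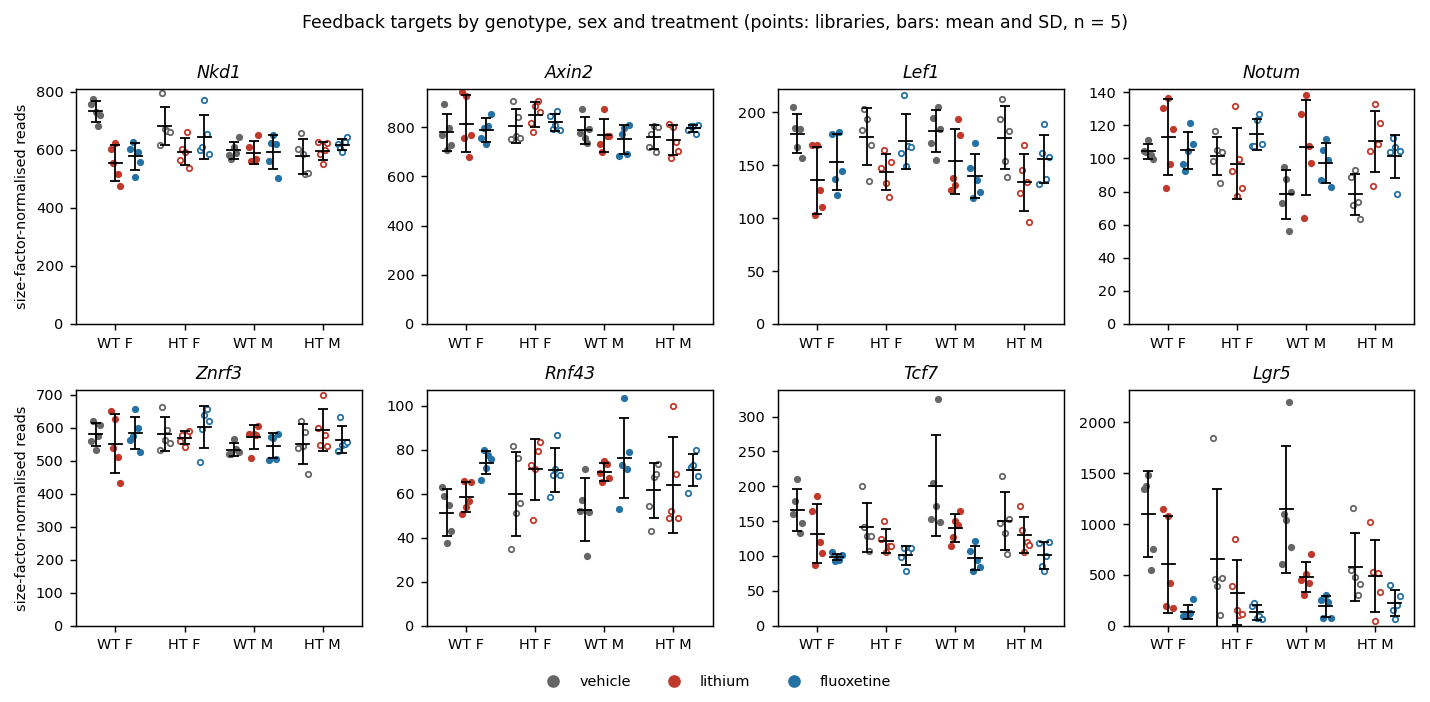
Normalised read counts of the 8 feedback genes in each of the 60 libraries (y axis, from 0), by genotype, treatment and sex on the x axis; grey is vehicle, red lithium and blue fluoxetine, filled points are WT and open points HT, and bars give the mean and SD (n = 5, cut at 0 for Lgr5). The 5 WT vehicle females of Nkd1 lie between 683 and 776, above all other WT libraries, while the group means of Axin2 lie between 747.5 and 850.6.

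Axin2, a standard transcript readout of beta-catenin, did not pass the test. It was at 679, 759, 768, 928 and 944 normalised reads in WT lithium females and at 708, 727, 770, 796 and 895 in WT vehicle females. The ranges overlapped almost wholly, with the lithium libraries spread more widely at both ends. The log2 difference of 0.06 had a 95% interval from -0.08 to 0.20 (adjusted p = 0.702 by limma), so a rise of more than 0.20 lay outside it. That interval uses a spread estimated over all 60 libraries, not from the compared groups alone.

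Lef1 was lower on average under lithium but did not pass the test. Its values were 103, 111, 127, 169 and 169 normalised reads in WT lithium females and 157, 167, 185, 185 and 205 in WT vehicle females. The 2 highest lithium libraries fell within the vehicle range. The log2 difference was -0.43 (95% interval -0.72 to -0.13, adjusted p = 0.32 by limma).

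The other feedback genes had differences on either side of 0. Notum, whose enzyme removes the lipid that Wnt proteins need, had a log2 difference of 0.09, and the genes for Frizzled-directed ubiquitin ligases, Znrf3 and Rnf43, were at -0.08 and 0.20. Tcf7, another nuclear partner of beta-catenin, was at -0.37. Lgr5, an R-spondin receptor and a target gene in many tissues, had the largest difference, -1.20, and the widest interval, -2.48 to 0.09. Its 5 lithium values of 177, 193, 416, 1076 and 1149 normalised reads reached from far below to inside the vehicle range of 544 to 1484. The median over the 8 feedback genes was -0.23, beside -0.077 over the other 40 members and 0.0077 over all genes.

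Across the 48 members the differences in WT females lay between -1.20 and 0.72 on the log2 scale, with 19 above and 29 below 0 and a median of -0.087. At an unadjusted p below 0.05 there were 12, all of them lower, where 11.3% of all genes reached that level and 6.06% were lower; 11 of the 12 did not survive adjustment over all genes. They included the destruction complex scaffold Axin1 (a mean of 686 against 805 normalised reads, log2 difference -0.23, adjusted p = 0.219), Fzd6 (301 against 368, -0.29, 0.275) and the R-spondin receptor gene Lgr4 (867 against 1273, -0.53, 0.277). Wls, the carrier of Wnt proteins to the cell surface, was at 1511 against 1859 (-0.32, 0.352), and the ligand Wnt7a at 488 against 804 (-0.78, 0.353), all by limma. Of the 9 Frizzled genes 8 had a difference below 0, with a median of -0.16.

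The kinase genes and beta-catenin had estimates near 0. Gsk3a averaged 6242 normalised reads under lithium and 5709 under vehicle (log2 difference 0.13, 95% interval -0.04 to 0.29). For Gsk3b the means were 5964 and 5524 (0.12, -0.02 to 0.26). Ctnnb1 averaged 18154 and 18953 (-0.065, -0.15 to 0.02), and Dvl1 3308 and 3294 (0.007, -0.09 to 0.10). None passed the test. These are transcripts: the phosphorylation of GSK3 and the amount of beta-catenin protein, where lithium acts, were not measured.

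Markers of other tissues also differed on average in this contrast, with none called. All 7 olfactory bulb markers were lower on average in the WT lithium females than in the vehicle females, none of them called; their mean log2 level was 8.66 ± 1.76 against 10.15 ± 0.73 (SD, n = 5), with sums of 1268 to 15813 against 6287 to 22899 normalised reads and none at 0 in any library. The 8 endothelial markers were at 9.99 ± 0.15 against 10.12 ± 0.07 (sums of 7733 to 10031 against 8715 to 9950, 0 of 8 called). The striatum markers went the other way, 11 of 12 being higher on average and none called, at 9.17 ± 0.93 against 8.67 ± 0.08 (sums of 10947 to 36474 against 11022 to 12460). Their median sums were 12588 and 11595, so the lithium mean rested largely on the highest library. With the striatum markers as a covariate Nkd1 was at -0.38 (adjusted p = 0.0875 by limma). All 6 cortical excitatory markers were also higher on average, none called, with a median log2 difference of 0.33. With the bulb covariates Wnt7a went from -0.78 to -0.44, Sfrp2 from -0.63 to -0.28 and Lgr5 from -1.20 to -0.24, while Lef1 went from -0.43 to -0.34 and Axin1 from -0.23 to -0.18. The part of endothelial or cortical cells in these differences was not tested. In bulk tissue fewer cells of a type and less RNA per cell cannot be told apart.

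In HT females lithium left no member past the threshold, against 0.0169% of all genes called. At an unadjusted p below 0.05 there were 7 members, again all lower, where 9.5% of all genes reached that level and 4.2% were lower; edgeR and DESeq2 also called 0. Nkd1 was at 538, 566, 594, 605 and 663 normalised reads under lithium and at 619, 661, 664, 673 and 795 under vehicle. The groups overlapped only through the highest lithium library. The log2 difference was -0.20 (95% interval -0.35 to -0.05, adjusted p = 0.525 by limma). Lef1 averaged 143.5 against 177 (log2 difference -0.29, 95% interval -0.59 to -0.001) and Axin2 851 against 805 (0.08, -0.06 to 0.22).

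The smallest p in HT females belonged to Fzd4, the Norrin and Wnt receptor of brain vessels, at 431 ± 49.9 under lithium and 536 ± 76.2 under vehicle (SD, n = 5). Its log2 difference was -0.31 with an adjusted p of 0.507 by limma. Sfrp1, a secreted Wnt antagonist, was at -0.34, Tcf7l1, a repressor of target genes, at -0.46, Fzd2 at -0.28 and Dvl2 at -0.23. The median was -0.078 over the 48 members and -0.14 over the 8 feedback genes, beside 0.0097 over all genes. The bulb markers averaged 7.35 ± 1.68 under lithium and 8.53 ± 2.12 under vehicle on the log2 scale (sums of 673 to 9720 and 364 to 23854 normalised reads). The striatum markers averaged 9.17 ± 0.87 and 8.85 ± 0.38, with median sums of 12917 and 12800 and highest sums of 33333 and 16860. With the bulb covariates, and likewise with the striatum covariate, 0 members were called in this contrast. The share of all genes and the single estimates in those fits are not given here.

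Among males, whose vehicle libraries stand apart, treatment and that separation cannot be told apart, and the differences carry no test. Nkd1 did not show the female difference: it averaged 591 normalised reads under lithium and 599 under vehicle in WT males (log2 difference -0.02, 95% interval -0.17 to 0.13) and 597 and 577 in HT males (0.05, -0.10 to 0.20). Lef1 was again below vehicle, by -0.26 in WT (-0.55 to 0.03) and -0.40 in HT (-0.70 to -0.11), so its estimate was below 0 in both genotypes and both sexes. Dvl1, a relay gene that was level in females, was 0.36 and 0.37 above vehicle in WT and HT males. Its vehicle males lay between 2458 and 2820 normalised reads and all 20 lithium libraries between 3121 and 3833. How many of all genes separated in this way was not counted, and the vehicle males stood apart over all genes. The difference of the lithium effect between genotypes, over both sexes, called no gene (0.0% of all genes) and no member. For Nkd1 it was 0.14 (95% interval -0.01 to 0.29, adjusted p = 0.812 by limma), and 2 members had an unadjusted p below 0.05 (Lgr4 at 0.43 and Wls at 0.26) where 4.0% of all genes had, with 0 called by edgeR or DESeq2.

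Set against fluoxetine, where both sexes could be used, lithium gave 12 differing members in WT, 10 higher and 2 lower, where 18.8% of all genes were called, 10.5% higher and 8.35% lower. The R-spondin receptor genes Lgr6 and Lgr5 differed most, while Lgr4 was not called (log2 difference 0.27, adjusted p = 0.103 by limma). Lgr6 was at 229, 239, 567, 1226 and 1238 normalised reads in lithium females and at 99.5, 105, 108, 178 and 256 in fluoxetine females. In males it was at 379, 554, 570, 635 and 816 under lithium and at 105, 119, 237, 242 and 283 under fluoxetine. The sexes agreed in direction; males did not overlap, and the 2 lowest lithium females fell within the fluoxetine range. The log2 difference was 1.80 (SE 0.37, n = 10 and 10, adjusted p = 0.00104 by limma).

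Lgr5 followed the same pattern. It was at 177, 193, 416, 1076 and 1149 normalised reads in lithium females and at 90.5, 94.0, 101, 121 and 259 in fluoxetine females. In males it was at 301, 422, 450, 509 and 706 under lithium and at 75.0, 76.8, 236, 250 and 305 under fluoxetine. The groups overlapped narrowly in each sex. The log2 difference was 1.69 (SE 0.45, adjusted p = 0.0087 by limma).

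The remaining 10 calls covered several roles. Among the ligands, Wnt5a (507 against 309 normalised reads, log2 difference 0.66) and Wnt7a (471 against 277, 0.71) were higher under lithium. Wnt7b (1381 against 1895, -0.47) and Wnt9a (666 against 950, -0.53) were lower. Fzd1 (518 against 443, 0.22), the R-spondin gene Rspo3 (365 against 291, 0.32), Dvl3 (2375 against 2151, 0.14), the Dishevelled inhibitor Nkd2 (151 against 104, 0.45) and Tcf7 (136 against 97.8, 0.45) were higher, with adjusted p values by limma from 0.00427 to 0.0481. Wnt9a lost its call in 15 and Nkd2 in 16 of the 20 fits that left out 1 library.

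Apc, a scaffold of the destruction complex, was at 26590 to 30232 normalised reads in lithium females and 25042 to 29950 in lithium males, against 23897 to 25693 and 22495 to 25692 under fluoxetine. The lithium females lay above all fluoxetine libraries, and the males overlapped. The log2 difference was 0.15 (adjusted p = 0.0325 by limma), a call lost in 7 of 20 fits without 1 library. Tcf7 lost its call without WT lithium female replicate 3. Axin2 (log2 difference 0.03), Nkd1 (-0.03) and Lef1 (-0.03) did not pass the test, and neither did Gsk3a, Gsk3b or Ctnnb1.

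Olfactory bulb markers differed in the same contrast. All 7 bulb markers were higher under lithium than fluoxetine and all were called; their mean log2 level was 8.66 ± 1.76 and 8.995 ± 0.72 in WT lithium females and males, and 5.16 ± 1.39 and 6.10 ± 1.71 in the fluoxetine groups (SD, n = 5). Their sums were 1268 to 15813 and 2602 to 9684 normalised reads under lithium and 244 to 2058 and 219 to 2381 under fluoxetine. Markers of other tissues were also called as higher under lithium: 5 of 7 for thalamus, 5 of 8 for meninges, 3 of 8 for astrocytes, 3 of 8 for endothelium, 2 of 6 for choroid plexus, 2 of 5 for oligodendrocyte precursors and 2 of 12 for striatum. Of the microglia markers 1 of 6 was lower, and the 6 cortical excitatory markers were all lower on average, with none called. The part of these tissues in the members' differences was not tested, apart from the fits with bulb and striatum covariates. With the bulb covariates 1 member kept its call, against 0.591% of all genes: Apc, at 0.23 (adjusted p = 0.041 by limma). Lgr6 then had a log2 difference of 0.17 (adjusted p = 0.808) and Lgr5 of -0.33 (0.324), the opposite direction. Among females alone only Lgr6 was called, with the share of all genes in that fit not given.

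**Figure D2:**
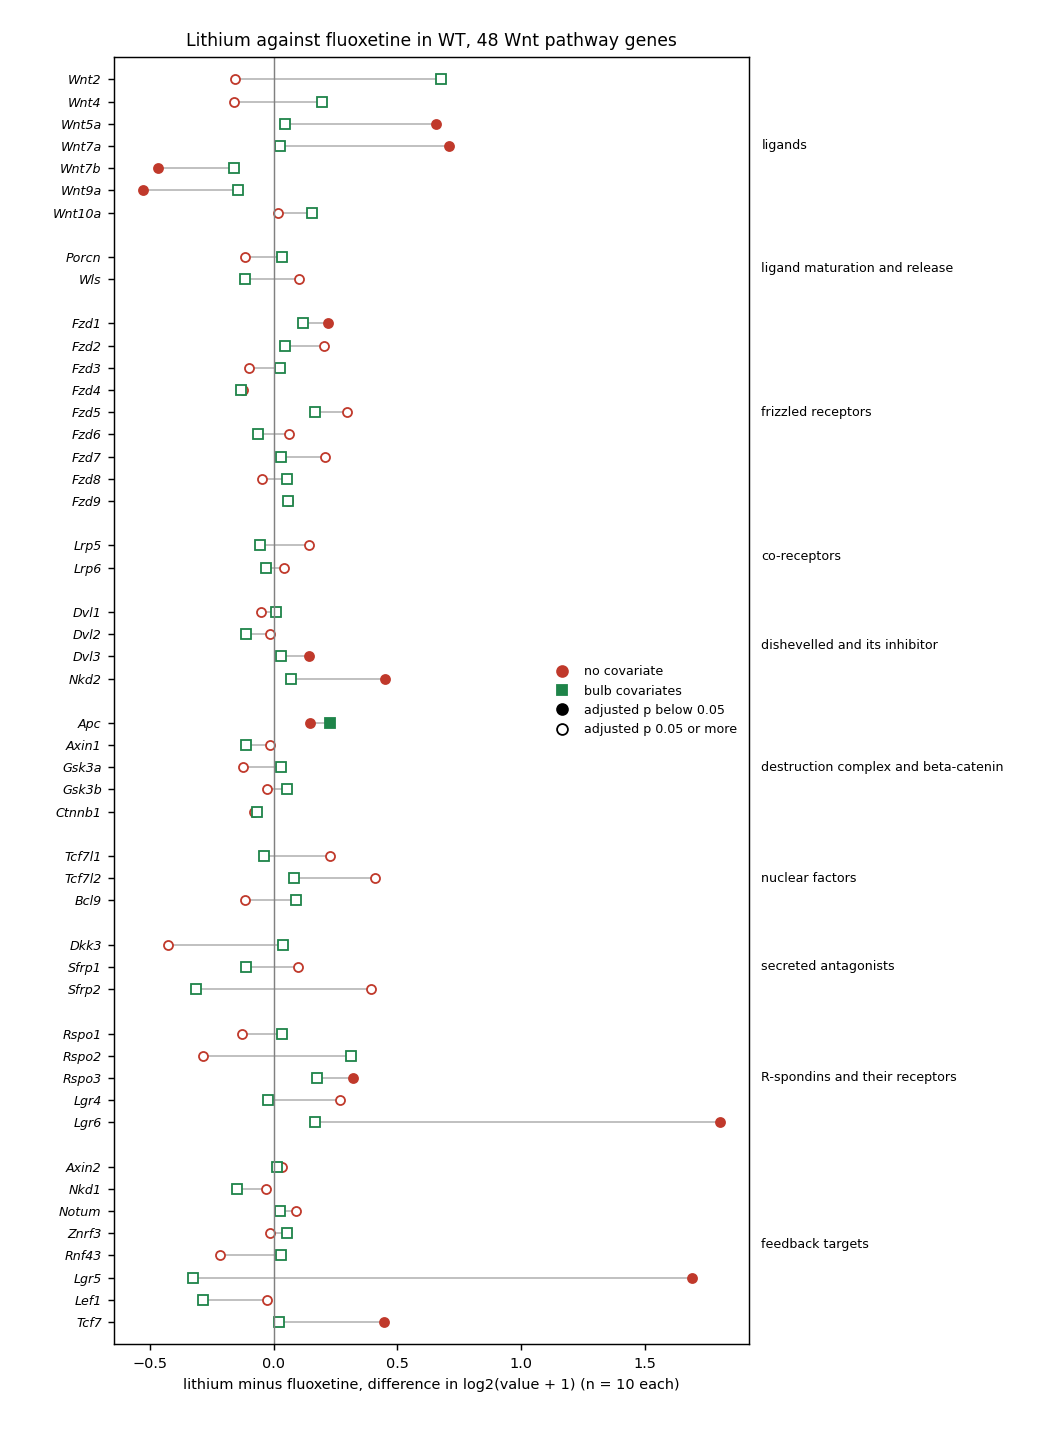
Log2 difference of lithium from fluoxetine in WT (x axis, both sexes, n = 10 and 10) for the 48 members by role (y axis); circles are without and squares with the olfactory bulb covariates, a grey line joins both estimates of a gene, and filled symbols have an adjusted p below 0.05. Lgr6 moves from 1.80 to 0.17 and Lgr5 from 1.69 to -0.33, while Apc moves from 0.15 to 0.23.

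No member was called between lithium and fluoxetine in HT, against 4.41% of all genes, although 13 had an unadjusted p below 0.05, as had 21.4% of all genes. EdgeR called 1 and DESeq2 called 3, with their shares of all genes not given. Ctnnb1 came closest, with a log2 difference of -0.098 (95% interval -0.16 to -0.04, adjusted p = 0.0553 by limma). It was followed by Lgr6 at 1.15 (0.0594) and Fzd4 at -0.22 (0.0608). With the bulb covariates 3 members were called, against 3.34% of all genes: Apc at 0.18 (adjusted p = 0.0201), Lef1 at -0.38 (0.035) and Dvl2 at -0.21 (0.0473). Apc thus had the same sign in both genotypes with and without the covariates, and Lef1 was -0.29 in WT with them (adjusted p = 0.405). The difference between genotypes was not tested here.

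The relation to bulb markers was measured over the 60 libraries as deviations from the 12 group means, so that it does not rest on treatment, genotype or sex. Lgr5 tracked the mean log2 level of the 7 markers most closely (Pearson's r = 0.976, Spearman's rho = 0.976, and r = 0.969 without the 2 libraries farthest from the median). Lgr6 followed (r = 0.941, rho = 0.955). Both had a permutation p of 1e-05, the smallest that 100000 permutations can give, and an adjusted p of 2.82e-05 over the 48 members. The ligands Wnt7a (r = 0.801, rho = 0.818) and Wnt5a (r = 0.793, rho = 0.875), the antagonist Sfrp2 (r = 0.815, rho = 0.758) and Tcf7 (r = 0.723, rho = 0.766) had the same permutation p.

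Gsk3a (r = -0.735, rho = -0.741) and Porcn, the acyltransferase that lipidates Wnt proteins (r = -0.682, rho = -0.646), ran the other way, with the same permutation p as Lgr5. Axin2 did not follow the bulb markers (r = -0.0096, rho = 0.0073, permutation p = 0.949, adjusted 0.97). Nkd1 (r = 0.267, rho = 0.261, permutation p = 0.0628, adjusted 0.0753) and Lef1 (r = 0.289, permutation p = 0.0643, adjusted 0.0753) did not pass the threshold on r, although Lef1 did on rho (0.376, permutation p = 0.00914, adjusted 0.0125). Fzd1, the gene with a genotype call below, passed on r (0.325, permutation p = 0.0215, adjusted 0.0279). It did not pass on rho (0.261, permutation p = 0.0722, adjusted 0.0888). Over the 48 members r ran from -0.735 to 0.976, and leaving out the 2 farthest libraries moved it by at most 0.192.

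**Figure D3:**
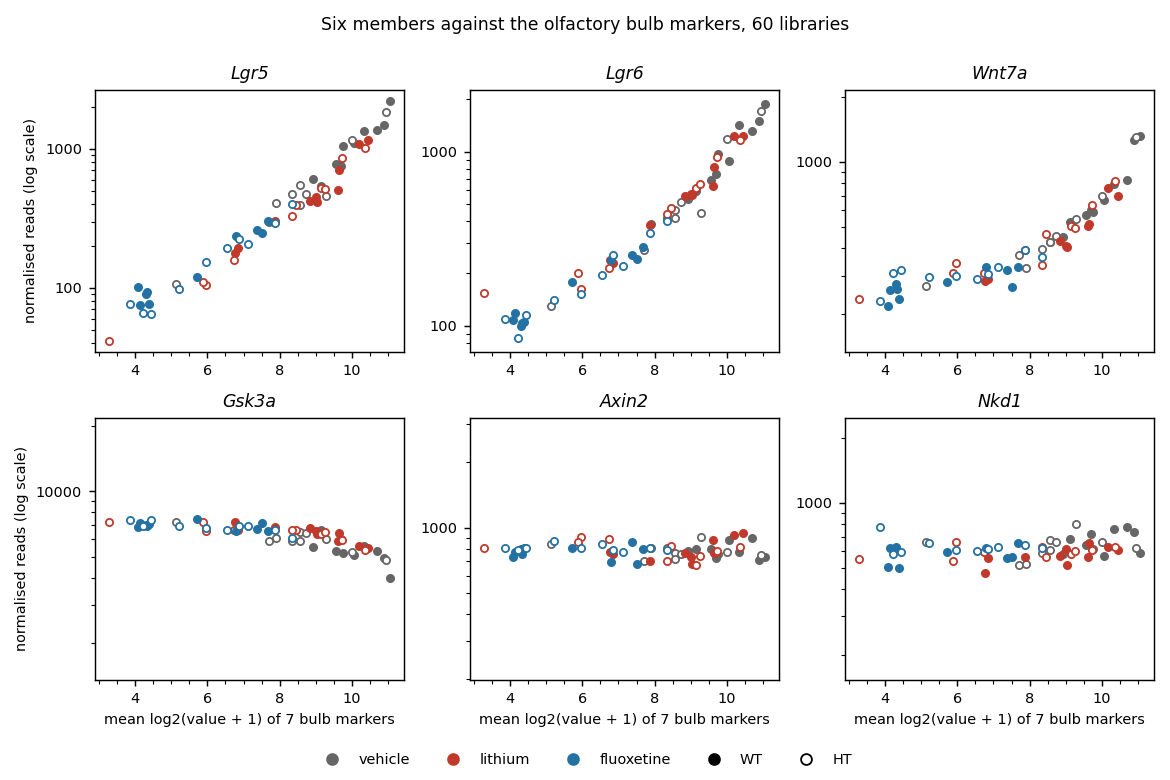
Normalised read counts (y axis, log scale) of Lgr5, Lgr6, Wnt7a, Gsk3a, Axin2 and Nkd1 against the mean log2 level of 7 olfactory bulb markers (x axis) in the 60 libraries, with colours by treatment and filled points for WT; levels are plotted as they are, not as deviations from group means. Lgr5 and Lgr6 climb steadily with the markers, Gsk3a declines and Axin2 is flat.

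One receptor gene differed by genotype. Averaged over treatments, Fzd1 (ENSMUSG00000044674, chr5:4753839-4758035 in GRCm38), a Wnt receptor gene, was lower in HT and was the 1 member called, against 1.21% of all genes. Under vehicle it was at 458, 459, 468, 484 and 539 normalised reads in HT females and 496, 508, 515, 519 and 594 in WT females. In vehicle males it was at 346, 384, 396, 407 and 480 in HT and 442, 448, 456, 491 and 507 in WT. In each sex 4 of the 5 HT libraries lay below all WT libraries.

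Under lithium the same order held with more overlap: HT females were at 425 to 539 and WT females at 448 to 623 normalised reads, HT males at 439 to 517 and WT males at 469 to 566. Under fluoxetine, HT females were at 410 to 438 and WT females at 396 to 477, and HT males at 376 to 454 and WT males at 426 to 472, with the females overlapping fully. The mean over treatments was 444 in HT and 486 in WT, a log2 difference of -0.13 (SE 0.031, 95% interval -0.19 to -0.07, n = 30 and 30, adjusted p = 0.0235 by limma). Leaving out any 1 of the 60 libraries kept the Fzd1 call (adjusted p from 0.0072 to 0.0441 by limma). Without HT vehicle female replicate 1, 11 members were called, with the share of all genes in that fit not given. The Fzd1 call was lost with the bulb covariates (-0.12, adjusted p = 0.136 by limma) and in females alone (-0.11, adjusted p = 0.264 by limma). The bulb markers were lower in HT than in WT under vehicle, at 8.53 ± 2.12 against 10.15 ± 0.73 in females and 8.50 ± 0.90 against 9.87 ± 0.79 in males, with sums of 364 to 23854 against 6287 to 22899 and 2263 to 10949 against 5456 to 23729 normalised reads. Under vehicle 11 of 12 striatum markers and all 6 cortical excitatory markers were higher on average in HT, none called. With the striatum markers as a covariate Fzd1 kept its call. The part of cortical excitatory cells in the Fzd1 difference was not tested.

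**Figure D4:**
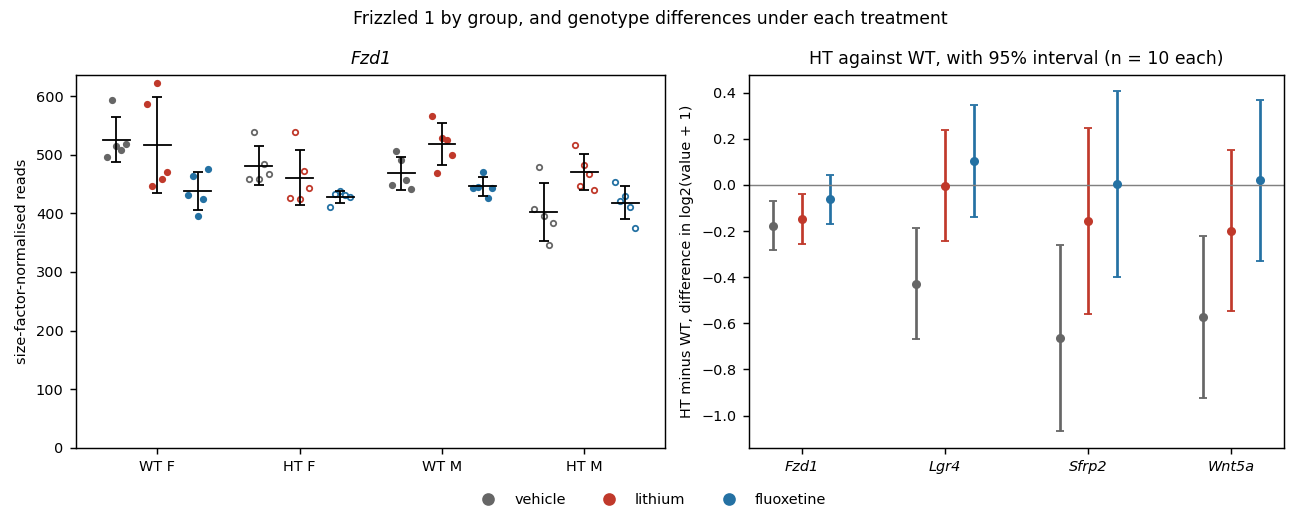
Normalised read counts of Fzd1 by group (WT filled, HT open, bars mean and SD, n = 5), and log2 differences of HT from WT with 95% intervals for Fzd1, Lgr4, Sfrp2 and Wnt5a under each treatment (n = 10 and 10). The Fzd1 estimates are below 0 under all 3 treatments, at -0.18, -0.15 and -0.06 under vehicle, lithium and fluoxetine.

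Within single treatments no member differed between genotypes. Under vehicle 0 were called, against 0.0337% of all genes, with 25 of 48 at an unadjusted p below 0.05 where 33.2% of all genes were; edgeR called 0 and DESeq2 called 4 (Wnt5a, Fzd1, Sfrp2 and Lgr4). Lgr4 averaged 965 normalised reads in HT and 1329 in WT (log2 difference -0.43, adjusted p = 0.0735 by limma), Sfrp2 101 and 155 (-0.66) and Wnt5a 510 and 767 (-0.57), whereas the ligand Wnt4 averaged 824 and 597 (0.54). This count hung on single libraries: it was 28 without HT vehicle female replicate 1, which is rich in bulb markers, 19 without WT vehicle male replicate 1, 14 without WT vehicle female replicate 4 and 13 without HT vehicle male replicate 2, but 0 without WT vehicle male replicate 4. The share of all genes called is not given for these fits or for DESeq2. Their counts are therefore not read as particular to the members. Under fluoxetine 0 were called, against 0.0112% of all genes, and 1 member (Nkd1 at 0.11) had an unadjusted p below 0.05, against 2.95% of all genes. Under lithium 0 were called, against 0.00562%, and 4 had an unadjusted p below 0.05, all lower and with Fzd1 at -0.15, where 8.37% of all genes reached that level and 3.9% were lower. In both cases edgeR and DESeq2 called 0. The feedback genes Nkd1, Axin2 and Lef1 had genotype differences of 0.03, 0.03 and 0.02 averaged over treatments. Under vehicle the 8 feedback genes ran from -1.10 to 0.21, with a median of -0.031 and 6 below 0. Of these, 2 were lower at an unadjusted p below 0.05 by limma and 0 were called. Under fluoxetine the 8 ran from -0.078 to 0.17. Under lithium the lowest of the 48 members, at -0.72, was a feedback gene. All 7 bulb markers were also lower on average in HT, none called, with median log2 differences of -1.47 under vehicle and -1.03 under lithium. Under fluoxetine all 7 were higher, at a median of 0.46, with none called. Over the 60 libraries Pearson's r with the bulb markers ran from -0.548 to 0.976 among the feedback genes. The part of bulb tissue in the values of -1.10 and -0.72 was not tested.

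A further 77 pathway genes passed the level filter, of 83 listed as additional targets, ligands, antagonists, core parts and non-canonical receptors. None was called for lithium against vehicle in females of either genotype; 12 in WT and 13 in HT females had an unadjusted p below 0.05, where 11.3% and 9.5% of all genes had. Between lithium and fluoxetine in WT 12 of the 77 were higher and 3 lower, where 10.5% of all genes were higher and 8.35% lower. The smallest p belonged to the cell cycle gene Ccnd1, a known target, which was lower under lithium (1299 against 1661 normalised reads, log2 difference -0.36, adjusted p = 0.00119 by limma). Apcdd1, a membrane inhibitor of Wnt signalling, was higher (2185 against 1690, 0.35), as was Adgra2, the Wnt7 co-receptor of brain vessels (759 against 610, 0.31). In HT 3 were called, close to the share of all genes (4.41%). The antagonist gene Sostdc1 (0.998) and the tankyrase gene Tnks2 (0.11) were higher and Dkkl1 (-0.45) was lower under lithium. Sostdc1 was near the level filter, at a mean of 12.9 normalised reads, with 33 of the 60 libraries at 10 or more. By genotype, averaged over treatments, 4 were called, where 1.21% of all genes were: the planar polarity gene Vangl2 (404 in HT against 482 in WT, -0.26, adjusted p = 0.00263) and the Groucho co-repressor gene Tle2 (750 against 889, -0.25) were lower and Tbx3 (0.28) was higher. The fourth, Amer1 (-0.14), was named after its values were seen.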

How the data were processed

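The authors deposited 1 table of signal values per gene for 60 libraries; it holds reads divided by a size factor, since every value is a whole multiple of its library's step (tolerance 1e-06, 100.0% of values; size factors 0.818 to 1.33). Per the labels' protocols a strand-specific poly(A) kit was used; per the submitters' processing notes Salmon 0.11.2, R 3.6.0, DESeq2 1.19.11 and GRCm38 were used, with no role given. Not given in the sources used here are the annotation release and whether reads were assigned by strand, so reads of overlapping genes, such as Gm45496 inside Nkd1 or genes antisense to Lef1, Axin2 and Lgr5, may be shared. Gene positions are from GENCODE vM21.

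Values of at least 10 in at least 5 libraries were kept and analysed as log2(value + 1) with limma 3.58.1 (R 4.3.3, trend, 1 mean per group, all 60 libraries, 48 residual degrees of freedom), over 9 comparisons, with Benjamini-Hochberg adjustment over all 17781 genes. A gene was called at an adjusted p below 0.05. Fold changes are on that log2(value + 1) scale and understate those of low genes. Bulb covariates were the mean log2 of the 7 markers and the log2 of their mean. Alternatives were other pseudocounts, filters, scaling, covariates, groups in the fit, single omissions, and count tests with DESeq2 1.42.0 and edgeR 4.0.16 on the reads so recovered. The fit was tested on simulated data.

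The members, lists and contrasts were chosen with earlier results of these data known; the fluoxetine against vehicle and male contrasts were added after the values were seen. Every member could be named, with values for those called and for every feedback gene; of further pathway genes, the 3 smallest p per comparison. No litter, dam or batch is named, so the p-values reflect the spread among these libraries alone, and littermates would share a treated mother. No 2 libraries of a group agreed within sampling noise (chi-square per degree of freedom at least 2.99 in 120 pairs).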

Additional observations from a re-analysis of the deposited data

Results flagged for a closer look

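In 5 of the 86 sets of 5 libraries examined (8 feedback genes in females, and each called gene in its groups), 1 library lay far from the other 4, its gap to the nearest being more than 0.71 of the whole range; chance flags about 1 in 20. Lgr5 was at 1850 normalised reads in HT vehicle female replicate 1, with the next library at 473, and this library also had the highest sum of olfactory bulb markers of all 60, 23854. Lgr5 was at 258.7 in WT fluoxetine female replicate 5, with the next at 120.6. Fzd1 was at 593.6 in WT vehicle female replicate 2, above the next at 518.9. Dvl3 was low in WT fluoxetine female replicate 3 (2128 against 2244) and in WT fluoxetine male replicate 1 (1935 against 2082).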

How the results depend on the processing

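The WT female call of Nkd1 gave way to 0 members in a fit to the compared groups only, with the bulb covariates and with a striatum covariate (adjusted p = 0.0875 by limma). Between lithium and fluoxetine in WT the 12 calls became 1 with the bulb covariates, 20 with the striatum covariate and 1 in females only, and Lgr5 turned to -0.33 with the bulb covariates. In HT the 0 calls became 1 with a mean of at least 100, 1 after quantile normalization, 5 with only the compared groups, 3 with the bulb covariates, 8 with the striatum covariate, 1 with edgeR and 3 with DESeq2. HT against WT gave 4 under vehicle with DESeq2, and averaged over treatments 0 with the bulb covariates and 0 in females only. The cause was not tested. Against fluoxetine, 0.591% of all genes in WT and 3.34% in HT were called with the bulb covariates. For the other alternatives and single omissions the share of all genes is not given. Their counts are therefore not read as particular to the members. Pseudocounts of 0.5 and 5 and no filter left every count within 1.5 times. Leaving out 1 library gave 0 to 1 members for lithium against vehicle in WT females, 0 to 0 in HT females, 8 to 14 against fluoxetine in WT and 0 to 2 in HT. For HT against WT it gave 0 to 28 under vehicle, 0 to 0 under fluoxetine, 0 to 0 under lithium and 1 to 11 averaged (2 without HT lithium female replicate 2 or HT lithium male replicate 1), and 0 to 0 for the interaction. With the replicate number as a block the counts were 1, 0, 12 and 0 for lithium, 0, 0, 0 and 1 for genotype and 0 for the interaction, as without it; same-numbered libraries had correlations of -0.391 to 0.457, no comparison had all 5 pairs over 0.1, and 0 to 3 of 5 matched best with their own number, so the numbers do not pair the samples. Depth limits the members with fewest reads, such as Rnf43 and Wnt2.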
